A study of Mus musculus with 282 samples.

Results

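The genes that encode the proteins of the cytosolic ribosome were followed in the whole hypothalamus of male mice kept on a diet high in fat and sugar. The mice belong to the Hybrid Mouse Diversity Panel (HMDP), which joins classical inbred strains with recombinant inbred strains bred from a few founders. They were taken by name, as the gene rows called Rpl or Rps with a number and the rows Rplp0, Rplp1, Rplp2 and Rpsa, without the Rps6k kinases and without names marked as pseudogenes. This rule found 85 of the 14079 deposited gene rows. Of these, 77 are core ribosomal protein genes, 31 of the small and 46 of the large subunit, and 8 are paralogues, processed copies or genes that only share the name (Rps19bp1, Rpl7l1, Rpl22l1, Rpl36al, Rps27l, Rps3a2, Rps3a3 and Rps4y2). In 5 rows the assembly joined a ribosomal protein gene with neighbouring or overlapping gene names, namely Rpl8, Rpl13a, Rpl17, Rpl19 and Rpl24. All 85 rows had a mean of at least 1 FPKM (fragments scaled to transcript length and library depth). The 14079 rows are those that had passed the authors' own limits on detection and level across mice. Genes or copies expressed at a low level or in few strains may therefore have no row.

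Of 282 mice, 1 had labels that name 2 strains and entered no comparison of strains, and the others came from 99 strains of 1 to 3 mice each. There were 43 BXD strains with 126 mice, 18 AXB and BXA strains with 47 mice, 6 BXH strains with 16 mice, 7 CXB strains with 21 mice, and 25 classical inbred strains with 71 mice, among them C57BL/6J, DBA/2J, A/J, BALB/cJ and C3H/HeJ with 3 mice each. The BXD strains descend from C57BL/6J and DBA/2J, the AXB and BXA strains from C57BL/6J and A/J, the BXH strains from C57BL/6J and C3H/HeJ, and the CXB strains from sublines of C57BL/6J and BALB/cJ. All strains shared the diet, and genotypes were not used here, so a strain difference is not traced to any part of the genome. Labels do not say whether mice of a strain were littermates or processed together, and such effects cannot be told apart from strain. Reads of all strains were aligned to the same reference genome, mm10. How sequence differences of a strain from that reference change its FPKM was not tested. Each library is a bulk sample of all cells of the dissected tissue, in which fewer cells of a type and less RNA per cell cannot be told apart.

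A ribosome holds 1 copy of nearly every one of these proteins, set on the ribosomal RNAs of a small subunit that reads the messenger RNA and a large subunit that joins the amino acids. The messenger RNAs are short, abundant and present in every cell, and most begin with a cytosine followed by a tract of pyrimidines, the TOP motif, through which their translation is controlled together by the mTOR kinase and the RNA-binding protein LARP1. Mammalian genomes also hold many processed copies of these genes, made by reverse transcription of the mature messenger RNA and inserted without introns at other places. Most such copies are annotated as pseudogenes and differ from the parent gene at few bases, so that short reads from the parent and the copy can be hard to assign.

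Sequencing depth was 5886672 to 23402476 read pairs per mouse, of which 5617305 to 22265723 mapped (median 12222402), and 72.27 to 92.61% of pairs mapped to 1 place. A pair of libraries stood apart. In replicate 2 of BXD-12/TyJ (mouse OB-547) the ribosomal protein rows took 9.55% of the summed FPKM of all gene rows, and in replicate 3 of CXB-3/ByJ (mouse OB-422) they took 5.76%, against a median of 3.60% and a lowest value of 2.82% over mice. The same libraries had 9.86% and 5.03% of their mapped pairs at more than 1 place, where the median was 3.54%, and their gene rows summed to 792801 and 463433 FPKM, where the median was 337467. For 81 of the 85 rows, a count given without the share of all gene rows, the highest of all mice was OB-547. Results are therefore given with and without it, and values named as without OB-547 come from 280 mice, or from 278 where they are deviations from the strain mean, which need at least 2 mice a strain. Of 14 hypothalamic markers 13 had a row, and their summed level was 1077 to 10598 FPKM, highest in OB-547. OB-547 was also the highest mouse for the summed level of 6 microglial markers (571 FPKM, median 178), 5 of blood (580, median 134) and 5 of endothelium (114, median 53.3), and the lowest for 6 of astrocytes (287, median 458). OB-422 had 3748 FPKM of the hypothalamic markers, where the median was 1644, 350 of the microglial and 341 of the blood markers, 333 of the astrocyte markers, and the highest summed level of 6 oligodendrocyte markers (3763, median 2421).

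Sequences of near-identical members and copies are shown first, since several members are described below together with the row of a copy. Each line covers 29 bases of coding sequence around the first base at which the copy departs from its parent, which is in capitals, and positions are counted from 1 at the A of the start codon. All were read from GENCODE M21 (GRCm38).
Rpl26, bases 163 to 191: gttcaggttgttcgCggacactacaaagg
Gm15772, copy of Rpl26: gttcaggttgttcgTggacactacaaagg
Rps18, bases 172 to 200: gaactcacggaggaTgaggtggagcgagt
Gm10260, copy of Rps18: gaactcacggaggaCgaggtggagcgagt
Rps7, bases 12 to 40: gagcgccaagatcgTgaagcccaatggcg
Gm6472, copy of Rps7: gagcgccaagatcgGgaagcccaatggcg
Rps26, bases 16 to 44: agaaacaacggtcgCgccaaaaagggccg
Rps26-ps1, copy of Rps26: agaaacaacggtcgTgccaaaaagggccg
Rps3a1, bases 202 to 230: gaagtgagccttgcTgatctacagaatga
Rps3a3, copy of Rps3a1: gaagtgagccttgcCgatctacagaatga
Over the 435 coding bases of Rpl26, Gm15772 differed at 2, C177T and T288C, where the parent's base comes first. Rps26-ps1 differed from Rps26 at 2 of 345 bases (C30T and G270A), Gm6472 from Rps7 at 3 of 582 (T26G, G48A and G123T), Gm10260 from Rps18 at 4 of 456 (T186C, A337C, G371A and G431A), and Rps3a3 from Rps3a1 at 8 of 791 aligned bases. At a limit of 95% identity over 80% of the coding sequence, 78 of the 85 members had at least 1 such copy in the annotation, with a median of 5 over members and the most, 57, for Rpl21. A copy was matched to a deposited row only where that row had no name or the name of a predicted gene, a pseudogene or a member. In this way 49 copies had a row of their own in the deposited table, and these belonged to 34 members. Copies under the authors' limits on detection and level had no row to match.

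Ribosomal protein genes were among the abundant transcripts of the hypothalamus. The median over the 77 core genes of the mean level per length was 126 FPKM, against 9.44 over all gene rows, and 71 of the 77 had a mean of at least 50 FPKM. Rplp1, an acidic protein of the stalk that recruits elongation factors to the large subunit, had the highest mean level, 832 ± 272 FPKM (mean ± SD over the mice with a strain; without OB-547 822 ± 203). Rps27 followed at 530 ± 220 FPKM, then Rps15 at 496 ± 199, Rpl13a at 438 ± 213 and Rps21 at 401 ± 225, and without OB-547 their means were 518, 485, 427 and 388 FPKM. Within mice and without OB-547, Rplp1 was above Rps27 in 266 of 280 mice, Rps27 above Rps15 in 174, Rps15 above Rpl13a in 205 and Rpl13a above Rps21 in 180. The mean log2 differences between these neighbours were 0.64 ± 0.37, 0.09 ± 0.24, 0.20 ± 0.27 and 0.13 ± 0.28 (SD over mice), so the last 3 differences were smaller than their spread. The lowest mean of a core gene was 20.3 FPKM, for Rpl27.

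The lowest levels belonged to the copies and look-alikes. Rps3a2 and Rps3a3, processed copies of the small subunit gene Rps3a1, had means of 2.66 ± 2.46 and 7.53 ± 16.2 FPKM. Rpl7l1, a relative of Rpl7 that acts in ribosome assembly, had 12.8 ± 1.53 FPKM, Rps19bp1, which encodes a protein that binds Rps19 and is not itself part of the ribosome, had 13.8 ± 4.05 FPKM, and Rps4y2, a relative of Rps4x with a row on chromosome 6, had 16.4 ± 7.37 FPKM. Rps27l, the paralogue of Rps27, stood at 17.4 ± 5.05 FPKM. The remaining paralogues were nearer to core genes, Rpl36al at 61.8 ± 17.5 FPKM and Rpl22l1 at 67.2 ± 29.2 FPKM.

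**Figure D1:**
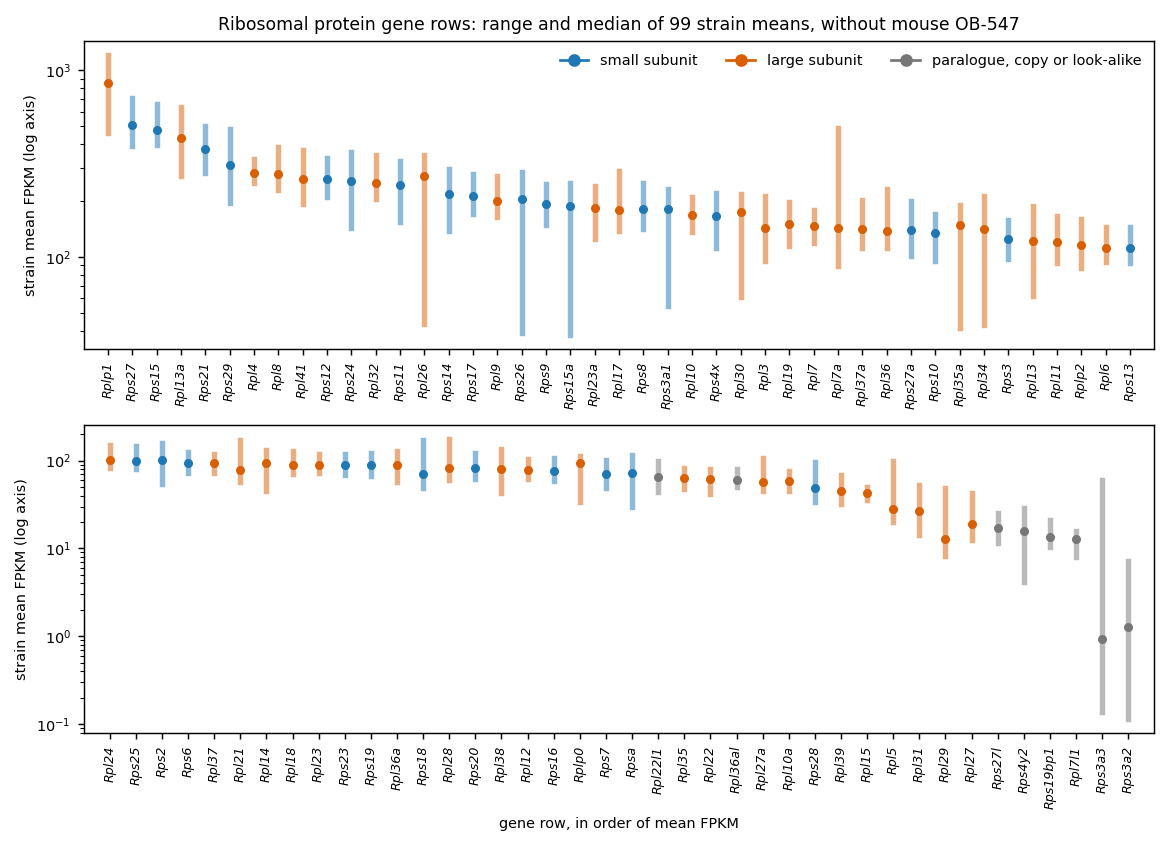
Strain mean FPKM (log axis) of 83 of the 85 gene rows in order of mean level, without mouse OB-547, where the dot is the median and the bar the range of 99 strain means. Bars are short for most genes and long for single ones such as Rpl26, Rps26, Rps15a, Rpl35a and Rps3a3.

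The spread of the members was near that of all gene rows. Without OB-547 the coefficient of variation over mice had a median of 16.6% over members and 15.5% over all rows, and was under 20% in 55 of 85 members (64.7%) and in 65.4% of all rows. The highest strain mean was a median of 1.98 times the lowest over members and 1.82 times over all rows, and it was at least 3 times the lowest in 20 members (23.5%), 17 of them core genes, and in 21.2% of all rows. Without OB-422 as well, the median fold of the members was 1.85 and 18 of them reached 3. With all mice, 64 of the 85 rows, or 75.3%, differed among the 99 strains (limma's moderated F test, Benjamini-Hochberg adjustment over all gene rows), which is the share of all gene rows that did, 75.4%. Without OB-547 the numbers were 78 of 85, or 91.8%, against 81.3% of all rows.

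The strain share of variance, the part of the variance between mice that lies between strains, had a median of 0.223 over members and 0.222 over all rows with all mice, and of 0.370 and 0.252 without OB-547.  A strain share of at least 0.8 was found in 10 members, or 11.8%, and in 2.56% of all rows, and without OB-547 in 14 members, or 16.5%, and in 2.83% of all rows. The 10 were Rpl26 (0.947), Rpl29 (0.946), Rps3a3 (0.924), Rplp0 (0.907), Rpl35a (0.859), Rps3a2 (0.842), Rpl34 (0.834), Rps3a1 (0.826), Rpl30 (0.809) and Rps18 (0.807). At the other end, Rpl36al had a strain share of -0.0243 and Rpl41 of 0.0201, and neither passed the test with all mice or without OB-547. For Rpl5 the widest range of strain means came from 1 mouse, since its 2 mice of BXA-12/PgnJ had 22.9 and 177 FPKM. Rpl7a was likewise high in 1 mouse of CXB-3/ByJ, whose 3 mice had 127, 137 and 1197 FPKM.

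Within the sets of strains, 24 of 85 members differed among BXD strains (28.2%, against 41.4% of all rows), and 65 without OB-547 (76.5%, against 54.1%). Among AXB and BXA strains 53 differed (62.4%, against 33.5%), and among classical inbred strains 74 did (87.1%, against 61.9%). The library of OB-547 belongs to the BXD set, and the other counts do not include it. In CXB-3/ByJ, 46 of 85 members had their highest strain mean once OB-547 was left out, as did 1373 of the 14079 gene rows. Without OB-422 as well, 0 members and 154 gene rows did. The mean over members was 6.45 and 6.46 in the other mice of that strain and 7.66 in OB-422, on the log2(FPKM + 1) scale. In NON/LtJ 14 of 85 members had their lowest strain mean, a count given without the share of all gene rows.

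Comparisons of C57BL/6J with the other founders asked which members differ between the parents of the recombinant inbred sets. In DBA/2J 10 members differed (11.8% of members, against 6.88% of all rows), 8 of them lower (against 3.58%) and 2 higher (against 3.30%). In A/J 14 differed (16.5%, against 8.01%), 12 of them lower (against 4.94%) and 2 higher (against 3.07%). In BALB/cJ 10 differed (11.8%, against 6.79%), 8 of them lower (against 3.93%) and 2 higher (against 2.86%). In C3H/HeJ 7 differed (8.24%, against 7.59%), 5 of them lower (against 3.71%) and 2 higher (against 3.89%). In each founder the members called higher were Rps3a2 and Rps3a3, and all other called members were lower than in C57BL/6J. The part of the shared reference genome in this direction was not tested. The same C57BL/6J mice serve in all 4 comparisons, and all values per founder below are for 3 mice. Without OB-547, which widens the spread shared by the fit, 15, 16, 14 and 17 members differed (8.57%, 9.64%, 8.29% and 9.26% of all rows). When the FPKM of each member and of its copies were added and tested as 1 row, 7, 10, 6 and 3 of 83 members differed (against 6.74%, 7.92%, 6.71% and 7.48% of all rows). The 83 leave out Rps3a2 and Rps3a3, which enter the sum of Rps3a1. Before adding, the counts without these 2 rows were the 8, 12, 8 and 5 called lower.

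Rpl26, a large subunit protein near the exit of the nascent chain (chr11:68901542-68906989), had the largest strain share of the members. Its 3 C57BL/6J mice had 249, 249 and 298 FPKM and the DBA/2J mice 303 ± 19.9 FPKM (SD), each over 249 FPKM. A/J mice had 52.3, 59.8 and 65.9 FPKM, BALB/cJ mice 72.1, 75.4 and 80.6 FPKM, and C3H/HeJ mice 79.4, 87.7 and 92.5 FPKM. All mice of these 3 strains lay below all mice of C57BL/6J and DBA/2J, by a log2 difference from C57BL/6J of -2.14 (SE 0.19) in A/J, -1.79 in BALB/cJ and -1.60 in C3H/HeJ (limma, Benjamini-Hochberg adjusted p = 3.73e-20, 6.14e-15 and 1.41e-12). Its copy Gm15772, at chr5:3236431-3236868 in a locus to which the assembly gives no name, ran the opposite way. It had 0, 0.712 and 5.20 FPKM in C57BL/6J and 1.89, 4.50 and 5.95 FPKM in DBA/2J, but 161, 168 and 189 FPKM in A/J, 189, 195 and 263 FPKM in BALB/cJ, and 187, 215 and 255 FPKM in C3H/HeJ. When the FPKM of parent and copies were added, the log2 difference from C57BL/6J was -0.20 in A/J, 0.12 in BALB/cJ and 0.19 in C3H/HeJ (adjusted p = 0.641, 0.835 and 0.665).

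The recombinant inbred strains fell into separate levels of Rpl26. Of the 18 AXB and BXA strains, 7 lay on the C57BL/6J side of the midpoint of the founders, at strain means of 7.91 to 8.24 on the log2(FPKM + 1) scale, and 11 on the A/J side, at 5.48 to 6.32. In CXB 1 strain and in BXH 4 strains lay on the C57BL/6J side, and 6 and 2 on the other. Every one of these 18, 7 and 6 strains lay on the same founder's side for Rpl26 and for Gm15772, although the parent and the copy are on different chromosomes. The lowest strain mean of Rpl26 was in AXB-6/PgnJ, whose 2 mice had 42.2 and 45.0 FPKM of Rpl26 and 137 and 144 FPKM of Gm15772.

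Rps18, a protein of the head of the small subunit (chr17:33951999-33955717), had 106, 108 and 109 FPKM in C57BL/6J. It had 48.8, 63.4 and 66.1 FPKM in DBA/2J, 52.0, 59.8 and 60.9 FPKM in A/J, 60.9, 63.0 and 73.2 FPKM in BALB/cJ, and 61.4, 72.2 and 73.7 FPKM in C3H/HeJ. No mouse of the other founders reached C57BL/6J, and the log2 differences were -0.86, -0.89, -0.71 and -0.63 (SE 0.19 each; limma adjusted p = 5.70e-04, 2.75e-04, 8.44e-03 and 2.07e-02). Gm10260 (chr13:97760072-97760632), which the annotation lists as protein coding, was listed at 0 in all 3 C57BL/6J mice and at 52.0 to 92.3 FPKM in every mouse of the other 4 founders. With the copies added, the log2 differences of Rps18 were 0.20, 0.23, 0.33 and 0.44, and none passed the test (adjusted p = 0.609, 0.515, 0.312 and 0.115). Over strains, the strain share of Rps18 without OB-547 went from 0.879 to 0.255 with the copies added, and that of Rpl26 from 0.976 to 0.423.

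Rps3a1 (chr3:86137940-86142702), a small subunit protein at the platform that binds initiation factors, was low in A/J and C3H/HeJ. It had 177, 186 and 201 FPKM in C57BL/6J, 180 to 194 in DBA/2J and 186 to 194 in BALB/cJ, but 73.8, 77.7 and 79.6 FPKM in A/J and 75.5, 86.1 and 92.4 FPKM in C3H/HeJ. The levels of A/J and C3H/HeJ did not overlap those of the other founders, with log2 differences of -1.27 and -1.14 (SE 0.16 each; limma adjusted p = 5.56e-11 and 4.32e-09). Its copy Rps3a3, itself a member of the 85, had 0.122, 0.198 and 0.421 FPKM in C57BL/6J, 43.8, 49.9 and 54.5 FPKM in A/J, and 49.2, 62.8 and 66.6 FPKM in C3H/HeJ. In DBA/2J and BALB/cJ it stood between, at 2.94 to 4.59 and 2.28 to 4.40 FPKM. Summed with its copies, Rps3a1 remained lower in A/J by a log2 difference of -0.49 (adjusted p = 0.0266), and the difference in C3H/HeJ was -0.34 (adjusted p = 0.186). In AXB and BXA, 13 strains lay on the C57BL/6J side for Rps3a1 and 5 on the A/J side, and all 18 agreed in side with Rps3a3, as did all 6 BXH strains.

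A transcript of Rps3a1 that the assembly classes as an unannotated isoform, 814 nucleotides long, carried most of this difference. It had 75.4, 82.8 and 95.3 FPKM in C57BL/6J, 0, 0 and 2.28 FPKM in A/J, and was listed at 0 in all 3 C3H/HeJ mice. A second unannotated isoform of 478 nucleotides had 69.7 to 92.5 FPKM in C57BL/6J, 64.6 to 71.7 in A/J and 67.3 to 80.2 in C3H/HeJ. The strain shares of the 814 and 478 nucleotide transcripts were 0.930 and 0.413.

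Rps26, Rps7 and Rps15a were looked at after their values had been seen, because their strain share fell by more than 0.1 with the copies added, as it did for Rpl26, Rps18 and Rps3a1. Rps26 (chr10:128624530-128626506) went from 0.877 to 0.309 without OB-547. Its lowest strain was NON/LtJ, with 38.9, 39.2 and 39.5 FPKM, where Rps26-ps1 (chr8:107439131-107439579) had 93.6, 100 and 123 FPKM, although that copy had a median of 1 FPKM over mice. Rps15a was lowest in CE/J, with 29.1, 30.5 and 53.9 FPKM, where Rps15a-ps7 had 44.8, 50.6 and 53.3 FPKM against a median of 2.01, and its strain share went from 0.691 to 0.526. Rps7 went from 0.70 to 0.275, and its copy Gm6472 on chromosome X had 2.43 to 4.80 FPKM in C57BL/6J and 19.2 to 29.9 FPKM in the other 4 founders. Another copy of Rps7 in that sum, Gm9493, ran the other way. It had 2.65 to 4.68 FPKM in C57BL/6J and 0 to 1.47 FPKM in the other 4 founders. These 6 members were the ones of 34 core genes with a copy row whose strain share fell by more than 0.1. Over the 34, the median strain share without OB-547 went from 0.401 to 0.361, and the number at or over 0.5 from 15 to 10. Rplp1 (0.552 to 0.489) and Rpl23a (0.513 to 0.465) also went under 0.5, while Rpl15 rose from 0.357 to 0.568. Summed with its copies, Rpl15 was higher than in C57BL/6J by a log2 difference of 0.30 in DBA/2J and 0.32 in C3H/HeJ. The limma adjusted p were 1.79e-02 and 8.44e-03, and alone its differences were 0.02 and 0.04. Among the 43 core genes with no copy row the median was 0.370 and 10 reached 0.5. How reads were divided between parents and copies by the alignment and quantification was not tested.

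**Figure D2:**
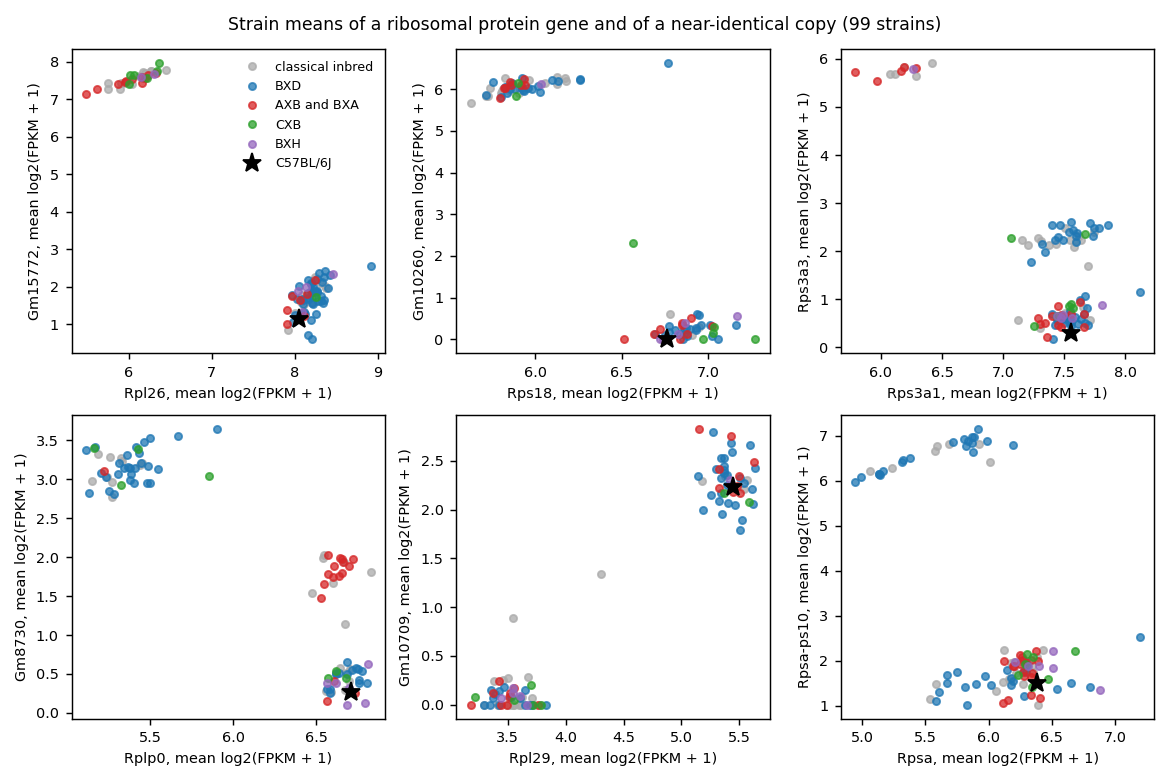
Strain means on the log2(FPKM + 1) scale over all mice with a strain of 6 ribosomal protein genes (horizontal) and a near-identical copy of each (vertical), coloured by strain set, with C57BL/6J as a star. For Rpl26, Rps18 and Rps3a1 the strains with a high copy lie at a low level of the parent, and for Rpl29 parent and copy are high in the same strains.

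**Figure D3:**
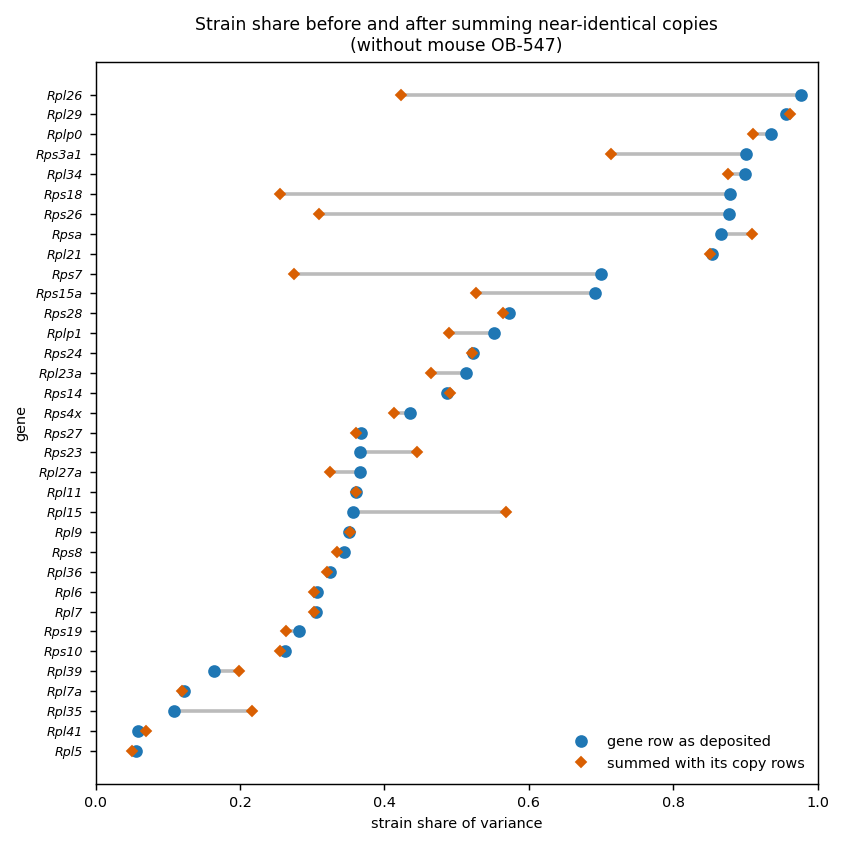
Strain share of variance of the 34 core genes with a deposited copy, from each row alone (circles) and from its FPKM summed with those of the copies (diamonds), without mouse OB-547. Rpl26, Rps18, Rps26, Rps7, Rplp1 and Rpl23a move to under 0.5 and Rpl15 to over 0.5, while Rpl29, Rplp0, Rpl34 and Rpl21 keep values over 0.8.

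Other members kept their strain difference with the copies added. Rpl29 (chr9:106429454-106431569), a small basic protein of the large subunit, had 38.1, 41.0 and 49.1 FPKM in C57BL/6J and 7.21 to 12.9 FPKM in the 12 mice of the other 4 founders, none of which reached the lowest C57BL/6J mouse. Its log2 differences were -1.92 in DBA/2J, -2.15 in A/J, -2.02 in BALB/cJ and -1.93 in C3H/HeJ (SE 0.18 each), and -2.04, -2.27, -2.14 and -2.05 with the copies added (largest limma adjusted p = 5.52e-20). Here the deposited copy, Gm10709, was high where the parent was high, with 2.80, 3.45 and 5.06 FPKM in C57BL/6J and 0 to 0.167 FPKM in the others. Gm10709 lies on the chromosome of the parent but far from it, at chr9:7751725-7752204. All 43 BXD, 18 AXB and BXA, 7 CXB and 6 BXH strains lay on the same founder's side for both. The part of linkage in this was not tested. Of the BXD strains 28 lay on the C57BL/6J side, at 5.15 to 5.64 on the log2(FPKM + 1) scale, and 15 on the DBA/2J side, at 3.29 to 3.83. The annotation held 27 near-identical copies of Rpl29.

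Rplp0, the protein that anchors the stalk (chr5:115559463-115563729), had 91.5, 102 and 119 FPKM in C57BL/6J. It had 32.7, 42.3 and 43.4 FPKM in DBA/2J and 32.4, 36.4 and 42.3 FPKM in BALB/cJ, both below every C57BL/6J mouse, but 80.1 to 94.5 in A/J and 87.9 to 117 in C3H/HeJ. The log2 differences were -1.38 in DBA/2J and -1.47 in BALB/cJ (SE 0.17 each; limma adjusted p = 3.57e-12 and 2.20e-13), and -1.11 and -1.21 with the copies added (adjusted p = 1.77e-08 and 7.89e-10). Its copy Gm8730 on chromosome 8 had 0.160 to 0.264 FPKM in C57BL/6J, 7.68 to 9.13 FPKM in DBA/2J and 4.70 to 10.4 FPKM in BALB/cJ. Of the 43 BXD strains 15 lay on the C57BL/6J side and 28 on the DBA/2J side, and each lay on the same founder's side for Rplp0 and Gm8730.

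Rpsa, a small subunit protein also known as the laminin receptor (chr9:120127766-120133713), differed in DBA/2J alone of the 4 founders at the threshold, which does not test it against the others. C57BL/6J mice had 75.7, 80.9 and 91.2 FPKM and DBA/2J mice 26.8, 34.9 and 36.2 FPKM, with a log2 difference of -1.32 (SE 0.19; limma adjusted p = 4.73e-09). Rpsa-ps10 had 1.02, 2.38 and 2.40 FPKM in C57BL/6J and 61.0, 78.9 and 81.6 FPKM in DBA/2J, and the sum differed by 0.32 (adjusted p = 0.372). The strain share did not fall, and was 0.866 for Rpsa alone and 0.909 for the sum. Among BXD strains Rpsa ran from 4.95 to 7.20 on the log2(FPKM + 1) scale without a gap at the midpoint, and 29 of 43 strains lay on the same founder's side for Rpsa and Rpsa-ps10.

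Rplp1 was lower in A/J, with 405, 470 and 580 FPKM against 886, 956 and 1079 FPKM in C57BL/6J, by a log2 difference of -1.01 (SE 0.22; limma adjusted p = 3.38e-04), and by -0.93 with the copies added. Its known transcript of 495 nucleotides had 251 to 289 FPKM in A/J and 319 to 351 FPKM in C57BL/6J, and an unannotated isoform of 282 nucleotides had 154 to 291 against 559 to 728 FPKM. The strain shares of the known and the unannotated transcript were 0.113 and 0.638. Gm11942, a copy of Rplp1, was higher in A/J than in C57BL/6J by a log2 difference of 4.58. Of the 18 AXB and BXA strains, 17 lay on the same founder's side for Rplp1 and Gm11942. Rplp2, the partner of Rplp1 in the stalk, differed in no founder, and its strain share was 0.0689 with all mice and 0.156 without OB-547.

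Rpl34 was lower in DBA/2J, with 80, 101 and 106 FPKM against 142, 151 and 161 FPKM in C57BL/6J, by a log2 difference of -0.67 (limma adjusted p = 6.54e-03). Its lowest strain was NON/LtJ, with 41.6, 42.8 and 45.1 FPKM, where its copies Rpl34-ps1 and Rpl34-ps2 had 3.08 to 8.53 and 0.758 to 2.26 FPKM, and its strain share was 0.899 alone and 0.875 with the copies added. Rpl21 was lower in A/J, with 62.2 to 71.2 FPKM against 100 to 129 FPKM in C57BL/6J and a log2 difference of -0.76 alone and with its copy (adjusted p = 2.94e-03 and 3.51e-03). Rps28 was lower in all 4 founders, with 25.8 to 54.0 FPKM against 65.4, 74.8 and 117 FPKM in C57BL/6J. Its log2 differences were -0.89 to -1.15 (SE 0.26 each, limma adjusted p from 8.72e-04 to 1.79e-02). In CXB, only 1 of 7 strains lay on the same founder's side for Rps28 and its copy Gm12943.

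Large strain differences also occurred in core genes without a copy matched to a gene row. Rpl30 (chr15:34440504-34450340) had 155, 173 and 198 FPKM in C57BL/6J, 74.1, 76.1 and 76.8 FPKM in A/J, and 72.3, 78.8 and 80.4 FPKM in BALB/cJ, while DBA/2J and C3H/HeJ had 148 to 204 FPKM. The log2 differences were -1.19 in A/J and -1.16 in BALB/cJ (SE 0.19 each; limma adjusted p = 1.77e-07 and 3.72e-07). Among AXB and BXA strains 11 lay at 7.26 to 7.60 and 7 at 6.25 to 6.63 on the log2(FPKM + 1) scale. Rpl30 had 12 near-identical copies in the annotation, none matched to a row of its own.

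Rpl35a (chr16:33056363-33060225), a large subunit protein, was low in A/J and BALB/cJ as well. It had 116, 138 and 144 FPKM in C57BL/6J, 41.5, 43.2 and 55.8 FPKM in A/J, and 44.3, 53.8 and 63.5 FPKM in BALB/cJ, without overlap, and log2 differences of -1.49 and -1.29 (SE 0.21 each; limma adjusted p = 1.42e-09 and 2.12e-07). Of 2 unannotated isoforms of 527 nucleotides, the more abundant had 67.8 ± 20.1 FPKM in C57BL/6J, 20.1 ± 8.03 in A/J and 12.4 ± 4.40 in BALB/cJ (SD). The less abundant had 24.7, 27.7 and 40.3 FPKM in C57BL/6J, 28.9 to 38.8 in DBA/2J and 18.4 to 30.3 in C3H/HeJ, and was listed at 0 in all mice of A/J and BALB/cJ. A known transcript of 491 nucleotides did not follow the gene row. It had 0.855, 4.57 and 26.3 FPKM in C57BL/6J, 0 to 21.8 in A/J and 14.3 to 24.4 in BALB/cJ. In DBA/2J it had 48.3 to 58.8 FPKM and in C3H/HeJ 44.7 to 64.6 FPKM. In CXB 6 of 7 strains lay on the BALB/cJ side for Rpl35a, and in AXB and BXA 4 of 18 on the A/J side. Rps2, a small subunit protein near the entry of the messenger RNA, had 108, 109 and 125 FPKM in C57BL/6J and 56.6, 67.4 and 76.9 FPKM in DBA/2J, by a log2 difference of -0.77 (SE 0.16; adjusted p = 1.55e-04). Rps2 differed in A/J too, by -0.48 (adjusted p = 4.25e-02), as did Rpl3 by -0.48 (adjusted p = 3.45e-02).

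Of the look-alikes, Rps4y2 was lower in DBA/2J, A/J and BALB/cJ. It had 24.1, 25.9 and 29.7 FPKM in C57BL/6J, 13.2 to 16.9 in DBA/2J, 6.31, 6.55 and 7.05 FPKM in A/J, and 8.33 to 15.5 in BALB/cJ, without overlap with C57BL/6J, and log2 differences of -0.80, -1.85 and -1.06 (limma adjusted p = 2.92e-02, 6.63e-10 and 1.34e-03). Rps3a2 had 0, 0.280 and 0.728 FPKM in C57BL/6J and 4.05 to 8.24 FPKM in the other founders. Rpl7l1 had a strain share of 0.477, Rpl22l1 of 0.209, Rps27l of 0.116 and Rps19bp1 of 0.0720, and only the last of these 4 missed the F test with all mice.

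Transcripts of members numbered 540, of which 244 matched a known transcript and 296 were unannotated isoforms. Of the 540, 360 differed among strains (66.7%, against 46.8% of all transcripts). FPKM of isoforms that share most of their sequence are estimates of how fragments divide between them, and the isoform values above carry that limit.

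Members rose and fell together from mouse to mouse. Over 279 mice of strains with at least 2 mice, deviations from the strain mean of log2(FPKM + 1) had a median Pearson's r of 0.711 over the 3570 pairs of members, and 86.9% of pairs were over 0.5, while the median over pairs of all gene rows was 0.00165. The value was lower without the libraries that stand apart. Without OB-547 the median was 0.525 (55.5% of pairs over 0.5), and without OB-422 as well it was 0.426 (35.0%). With all libraries scaled to the same summed FPKM and without OB-547 it was 0.379, and with quantile normalization 0.321. All genes of a mouse share its library and pairs share genes, so these values are given as descriptions.

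Among the members that followed the mean of the others most closely were Rpl8 and Rpl32, at r = 0.972 and 0.965 over all mice and 0.934 and 0.915 without OB-547. Those that followed it least were Rps3a2 (0.112), Rps3a3 (0.292), Rpl5 (0.412), Rpl29 (0.526) and Rps27l (0.625), and without OB-547 their values were 0.134, 0.145, 0.288, 0.321 and 0.469. Core members as a group had a median r with the mean of the other members of 0.871, and 0.753 without OB-547. The small subunit had 0.778 and the large subunit 0.740 without OB-547. The paralogues and look-alikes had 0.482.

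**Figure D4:**
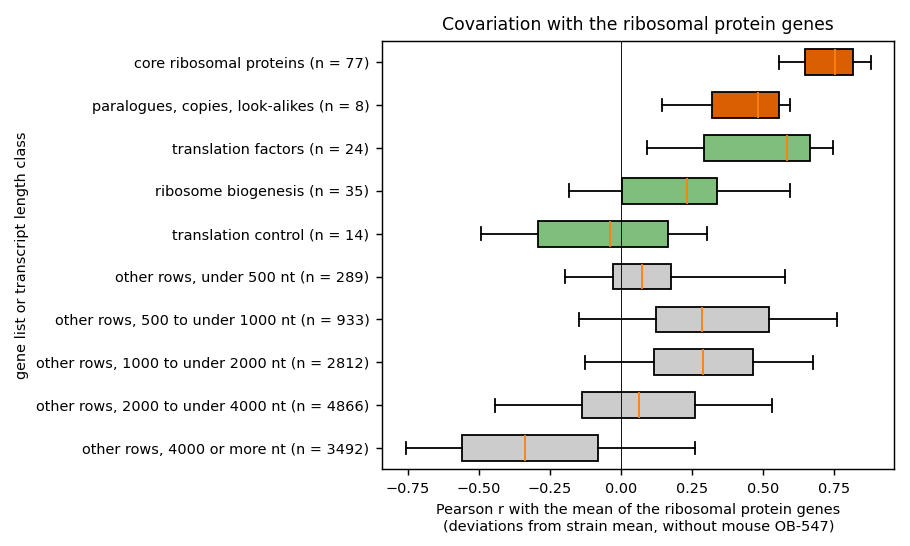
Pearson's r, over deviations from the strain mean and without mouse OB-547, between the mean of the members (for a member, of the other members) and each gene row, by gene list and, for other rows, by transcript length in nucleotides (orange line, median; box, quartiles; whiskers, 5th to 95th percentile). Core members have a median of 0.753 and the rows of 4000 nucleotides or more a median of -0.339.

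Other genes of translation followed the members to different degrees. Fau encodes a ribosomal protein as a fusion with a ubiquitin-like protein and is outside the name rule, and its row had r = 0.877 without OB-547. Of a list of other genes known for TOP messenger RNAs, most of them translation factors, 24 of 25 had a row. Their median r was 0.585, with 0.746 for Tpt1, 0.642 for the elongation factor Eef2, 0.599 for Eef1a1, 0.0904 for Pabpc1, and 0.796 for Cox4i1, a subunit of mitochondrial cytochrome oxidase that is no translation factor. Genes of ribosome biogenesis, 35 of 36 with a row, had a median r of 0.234, with -0.336 for nucleolin (Ncl) and 0.566 for Nop10. Regulators of translation and of ribosome synthesis, a list of kinases, repressors and Myc genes, had a median of -0.0386 over 14 rows. The lowest were -0.728 for Larp1 and -0.491 for Tsc1, the highest 0.427 for the kinase Rps6kb2 and 0.302 for Myc, and Mtor had -0.273. In strain tests with all mice, 18 of the 24 genes of the first list, 26 of the 35 biogenesis genes and 8 of the 14 regulators differed among strains, beside 75.4% of all rows.

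The non-member rows most like the mean of the members were short and abundant. Over all mice they were Sod1 (r = 0.952), Akr1a1 (0.948), Fau (0.943), Bex2 (0.933), Nenf (0.931), Fis1 (0.928), Hint1 (0.927), Atp6v0b (0.922), Psmb6 (0.921) and Myl6 (0.917), chosen as the 10 highest r over 279 mice. Without OB-547 Sod1, Fau and Akr1a1 stayed on top, at 0.880, 0.877 and 0.870. Transcript length moved with the measure. Members had a median length of 765 nucleotides (322 to 2606) and other rows one of 2774. Over other rows without OB-547 the median r was 0.0745 below 500 nucleotides, 0.285 from 500 to under 1000, 0.289 from 1000 to under 2000, 0.0642 from 2000 to under 4000, and -0.339 at 4000 or more. The part of transcript length in the covariation was not tested.

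Library measures moved with the mean level of the members. Over deviations within strains and without OB-547, the mean of log2(FPKM + 1) over members had r = 0.87 with the percentage of mapped pairs at more than 1 place (Spearman's rho 0.77), and without OB-422 as well 0.80 (rho 0.76, n = 277). Reads of the members are among those counted in that percentage. The correlation with mapped pairs was 0.20 (rho 0.25), and with the percentage of uniquely mapped pairs it was -0.03 (rho 0.06). The summed levels of cell type markers moved with the members too, with r = 0.62 for 6 microglial markers (rho 0.48), 0.38 for 5 of blood (0.33), 0.36 for 13 of the hypothalamus (0.43), -0.28 for 6 of neurons (-0.34) and -0.58 for 6 of astrocytes (-0.44). Without OB-422 as well, r was 0.49, 0.31, 0.31, -0.40 and -0.47, in the same order. For 6 of anterior pituitary, 5 of choroid plexus, 5 of thalamus, 6 of oligodendrocytes and 5 of endothelium r lay between -0.13 and 0.18, and without OB-422 between -0.21 and 0.13. Their part in the levels of the members was not tested.

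**Figure D5:**
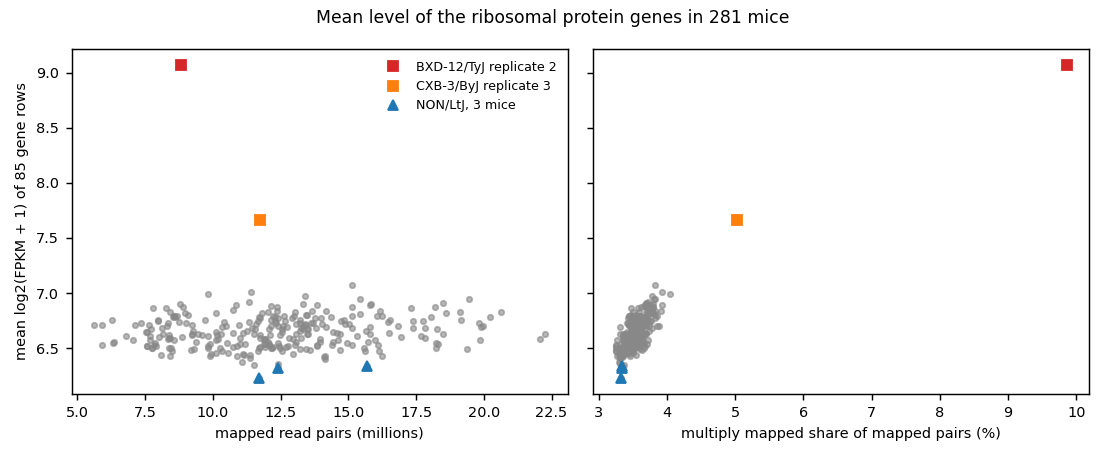
Mean log2(FPKM + 1) of the 85 members in each mouse with a strain against mapped read pairs (left) and against the percentage of mapped pairs at more than 1 place (right). OB-547 at 9.07 and OB-422 at 7.66 stand above the other mice, and the 3 NON/LtJ mice at 6.23, 6.32 and 6.34 lie at the lower end.

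Library depth was tested gene by gene as the slope of log2(FPKM + 1) on log2 mapped pairs within strains. With all mice 0 of 85 members passed (limma, Benjamini-Hochberg), beside 1.52% of all rows, and 7 had an unadjusted p under 0.05 (8.24%, against 15.6%). Without OB-547 17 members passed and all of them rose (20%, against 6.58% of all rows in either direction and 3.46% that rose), and the median slope was 0.0776 over members and -0.00161 over all rows. With all mice the median slope of the members was 0.0198, and it was -0.0581 without the mice numbered replicate 1. Without OB-422 as well 19 passed. The steepest rise was that of Rpl41, a very short protein of the large subunit, with a slope of 0.22 (SE 0.07, adjusted p = 0.0581) per doubling of mapped pairs with all mice and 0.29 (SE 0.05, adjusted p = 0.000322) without OB-547. Among the other steep rises, Rps23, Rpl35 and Rpl37a had 0.19 each without OB-547, and all 3 passed (adjusted p = 0.000497, 0.0195 and 0.00567). The steepest falls were those of Rplp2 (-0.15), Rpl22l1 (-0.11), Rps24 (-0.10), Rpl24 (-0.09) and Rps4x (-0.08) with all mice, none of which passed with or without OB-547.

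The mean over members had a strain share of 0.131, and 0.318 without OB-547. The lowest strain means were those of NON/LtJ (6.30), SJL/J (6.39) and CE/J (6.44), and their ranges over mice were 6.23 to 6.34, 6.36 to 6.41 and 6.4 to 6.47, while the median mouse had 6.64.

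Start regions of the members were searched for short motifs that have been described for ribosomal protein genes. Of the 77 core genes 57 matched the RefSeq promoter table (GRCm38.p6). The letters CTTTC, a short form of the start of a TOP messenger RNA, were found on the sense strand within 30 bases around the annotated start in 16 of 57 (28.1%), and in 4.76% of the 27025 genes of the table. The letters CCGGAAG, the core of sites of the ETS family, were found on either strand of 300 bases around the start in 24 of 57 (42.1%), and in 9.93% of all. The windows of 4 highly expressed members with CTTTC, in capitals, are shown from 5′ to 3′ of the gene, all on the minus strand.
Rps27, chr3:90213634-90213663: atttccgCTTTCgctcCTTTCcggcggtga
Rpl13a, chr7:45128731-45128760: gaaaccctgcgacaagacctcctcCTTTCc
Rps26, chr10:128626492-128626521: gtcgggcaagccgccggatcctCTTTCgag
Rps15a, chr7:118116133-118116162: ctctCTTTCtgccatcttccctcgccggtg
The letters occur at 2 places in the window of Rps27 and at 1 in each of the others. A match is a description of these letters and not of a site in use.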

How the data were processed

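RNA was extracted by the authors from the hypothalamus of male mice on a diet high in fat and sugar, and 1 unstranded, paired-end mRNA library was sequenced per mouse. They aligned reads to mm10 with STAR 2.3.1, keeping reads that map to several places, assembled and merged transcripts with Cufflinks 2.2.0 and GENCODE M2, with quantification by Cuffquant and Cuffnorm 2.2.1. The values the authors deposited are FPKM per gene and per transcript, scaled between mice, without counts, so no counting interval was computed. Read pairs per mouse came from the study's own list. All deposited columns of the 282 mice were used for FPKM (0 left out), and 1 mouse whose labels name 2 strains entered no comparison of strains.

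FPKM were analysed as log2(FPKM + 1) with a pseudocount of 1. All 14079 gene rows were fitted with limma 3.58.1 in R 4.3.3, with strain as factor and without covariate, and p values were adjusted by Benjamini-Hochberg over all rows at 0.05. Founder comparisons are contrasts of the same fit, and depth is a slope on log2 mapped pairs with strain in the model. Strain share is the intraclass correlation from mean squares. Labels do not say whether mice of a strain were littermates or processed together, so p values measure the spread between these mice. Data were simulated for 14079 genes with 200 changed, with independent normal errors and no library that stands apart, unlike the real data. On them the strain test recovered 100% at a strain share of 0.5 with 2.44% false calls. The depth test recovered 98.5% at a slope of 0.5 with 4.37% false. Its recovery at slopes as small as those of the members (median 0.0198 with all mice, 0.0776 without OB-547) was not tested. Near-identical copies were found with blastn 2.17.0 in GENCODE M21 at 95% identity over 80% of the coding sequence. A strain was put on a founder's side by the midpoint of the founder means where these differed by at least 1 on the log2 scale. Gene lists other than the members (other TOP genes, ribosome biogenesis, regulators of translation and ribosome synthesis, cell type markers) come from textbook knowledge. The members and lists were chosen with earlier results of these data known.

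Members named are the 10 with the largest strain share past the test, the 5 highest and 5 lowest mean FPKM, the 5 steepest slopes in each direction, the 5 least correlated with the others, Rplp0, Rplp1, Rplp2 and Rpsa, paralogues and look-alikes, and those with a called founder difference of at least 0.5 on the log2 scale; other members named were chosen after their values were seen, and a few genes that the rule names are not reported here. Alternatives were a pseudocount of 0.1, quantile normalization, a filter on mean FPKM under 1, scaling to the same sum, covariates, the Kruskal-Wallis test, core genes only, leaving out each replicate number, and OB-547; sums with copies and removal of both OB-547 and OB-422 were added after seeing the data. Figures were drawn with matplotlib 3.10.9. Genotypes, traits and proteins were not analysed here.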

Additional observations from a re-analysis of the deposited data

How the results depend on the processing

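Leaving out mouse OB-547 and rescaling the libraries moved most counts and medians. The median strain share of members, 0.223, was 0.370 without it, 0.444 without OB-422 as well, 0.379 after quantile normalization, 0.338 with libraries scaled to the same sum, 0.209 with copies added, and 0.221 to 0.233 without 1 replicate number. The 24 members that differed among BXD strains were 65 without OB-547, 50 after quantile normalization, 41 scaled to the same sum, and 15 to 20 without 1 replicate number. Leaving out 1 replicate number gave 21 to 36 of the 53 members among AXB and BXA strains, 42 to 73 of the 74 among classical inbred strains, and 43 to 53 of the 64 among all strains. Against C57BL/6J the 10 members of DBA/2J were 16 after quantile normalization and 5 to 11 without 1 replicate number, and the 10 of BALB/cJ were 6 with copies added. The 7 of C3H/HeJ were 17 without OB-547, 16 after quantile normalization, 16 scaled to the same sum, and 3 with copies added. Values with copies added leave out Rps3a2 and Rps3a3, which were called in each founder and enter the sum of Rps3a1. With copies added the difference from C57BL/6J turned positive for Rpl26 in BALB/cJ (0.12) and C3H/HeJ (0.19), for Rps18 in DBA/2J (0.20), A/J (0.23), BALB/cJ (0.33) and C3H/HeJ (0.44), and for Rpsa in DBA/2J (0.32), on the log2 scale.

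The count of members linked to depth, 0, was 17 without OB-547, 19 without OB-422 as well, 11 without a strain term, 3 after quantile normalization, 3 scaled to the same sum, 1 with sequenced pairs, 3 with the percentage of unique pairs as covariate and 22 with that covariate and without OB-547, and 0 to 1 without 1 replicate number. The median r between members, 0.711, was 0.525 without OB-547, 0.426 without OB-422 as well, 0.399 after quantile normalization, 0.484 scaled to the same sum, 0.452 as Spearman's rho, 0.425 over strain means, 0.522 over single mice, and 0.601 to 0.767 without 1 replicate number, the lowest without replicate 2. The causes were not tested. Of all values recomputed, 678 kept their direction and side of the threshold or moved less than the spread over the fits without 1 replicate number, 41 lost their call or were counts over 1.5 times lower, 35 gained a call or were counts over 1.5 times higher, 15 moved by more than that spread and 7 changed sign. No paired analysis was possible because replicate numbers only name mice in order of accession and pair no mice across strains. FPKM carry no counts, so depth limits single values to an unknown degree, and founder comparisons rest on 3 mice a strain.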
